A study of Homo sapiens with 4 samples.

Results

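The 5 miR-200 miRNAs (hsa-miR-200b-3p, hsa-miR-200a-3p, hsa-miR-429, hsa-miR-200c-3p and hsa-miR-141-3p), hsa-miR-203a-3p and hsa-miR-205-5p, written below without the species prefix, were taken by name from the small RNA counts of 4 colorectal cancer cell line libraries. They are 7 of the 1474 mature miRNAs with at least 1 count in the series. All 7 were counted in HCT116, HCT116-R and RKO-R, and 6 of them in RKO. HCT116 and RKO are established human colorectal carcinoma lines, and both served as untreated parental lines. HCT116-R and RKO-R are lines with acquired radioresistance, each derived from its parental line by fractions of 4 Gy up to a total of 40 Gy and kept at least 3 weeks without irradiation before use. The study compared radioresistant with parental cells, and the same libraries also allow HCT116 and RKO to be compared. Each line gave 1 library, and each radioresistant line is 1 derived population. No line therefore has a replicate check, and each pairwise test below compares 2 libraries and not the conditions.

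The miR-200 family is best known as a guard of the epithelial state: its members repress the transcription factors ZEB1 and ZEB2, which in turn repress E-cadherin and the miR-200 genes themselves. A miRNA finds its targets mainly through its seed, the bases near the 5′ end, so that family members with the same seed share most of their predicted targets. miR-203 is linked to differentiation of stratified epithelium, and miR-205 is abundant in stratified and glandular epithelia and, like the miR-200 family, can target ZEB1 and ZEB2.

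The mature sequences show how the 7 miRNAs fall into seed groups, which decides which of them can stand in for one another. They were taken from RefSeq (GRCh38.p14), where all 7 were matched, and are given 5′ to 3′ with the seed (bases 2 to 8) in capitals. The first 3 share 1 seed.
miR-200b-3p: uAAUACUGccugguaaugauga
miR-200c-3p: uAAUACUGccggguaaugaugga
miR-429: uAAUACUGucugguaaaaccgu
The next 2 share the other miR-200 seed.
miR-200a-3p: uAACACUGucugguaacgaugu
miR-141-3p: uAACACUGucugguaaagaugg
The last 2 have seeds of their own.
miR-203a-3p: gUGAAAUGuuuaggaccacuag
miR-205-5p: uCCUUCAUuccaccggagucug

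With positions counted from 1 at the 5′ end, the miR-200 seeds differ by 1 base, written U4C from miR-200b-3p to miR-200a-3p. Outside the seed, miR-200b-3p and miR-200c-3p differ by U11G and A22G over the 22 bases compared, and miR-200a-3p and miR-141-3p differ by C17A and U22G. miR-429 is further from miR-200b-3p, with 6 differences and none in the seed. In the RefSeq table no other human mature miRNA carried either miR-200 seed, and the seeds of miR-203a-3p and miR-205-5p were each found in 1 mature miRNA.

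Seed and genomic position cut across each other in this family. MIR200B, MIR200A and MIR429 lie within 1984 bp on the plus strand of chromosome 1, with the mature miRNAs at chr1:1167160-1167181, chr1:1167916-1167937 and chr1:1169055-1169076, and no other gene is annotated over their hairpins. MIR200C and MIR141 lie within 493 bp on the plus strand of chromosome 12, at chr12:6963742-6963764 and chr12:6964155-6964176, in an intron of the lincRNA MIR200CHG. Each cluster therefore holds members of both seed groups. The mature miR-203a-3p lies at chr14:104117469-104117490, where the MIR203B hairpin overlaps on the opposite strand. miR-205-5p lies at chr1:209432166-209432187, and its hairpin partly overlaps an exon of its host transcript MIR205HG.

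The libraries held between 6818497 and 7140460 counts, so that 3 counts, the limit that a count of 0 allows, corresponded to 0.420 to 0.440 CPM (the count scaled by the library total) and depth differed little between them. Levels above 0 are given as CPM with 95% Wilson intervals, which cover counting error only, and a level of 0 with the limit of 3 counts. Of the miRNAs chosen to check the intestinal epithelial origin of the lines, 7 were listed, and they summed to 14664 to 40352 CPM in the 4 libraries, carried mainly by miR-182-5p, miR-183-5p and miR-96-5p. The defining intestinal miRNAs were low, with miR-192-5p at 202 to 323 CPM, miR-194-5p at 65.1 to 119 CPM, and miR-215-5p at 3 counts in HCT116-R and 0 in the other libraries. Among them the enteroendocrine miR-375-3p had 3059.5 CPM in HCT116 and 1736 CPM in HCT116-R but 7.98 and 14.0 CPM in their RKO counterparts. The 7 blood cell miRNAs summed to 12.6 to 47.8 CPM. The 13 mesenchymal miRNAs summed to 13.9% to 24.2% of the counts, carried mainly by miR-222-3p and miR-100-5p, which many cultured lines express.

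Together the 5 miR-200 members made up 6.26% of all miRNA counts in HCT116 and 5.83% in HCT116-R. In RKO they made up 0.980% and in RKO-R 1.13%. The gap between the lines lay mainly in the chromosome 12 cluster, whose 2 members summed to 43689 CPM in HCT116, 43228 CPM in HCT116-R, 93.3 CPM in RKO and 212 CPM in RKO-R. The chromosome 1 cluster summed to 18952, 15048, 9707 and 11048 CPM in the same order. Both HCT116 lines stood above both RKO lines in each sum, and the distance was far wider for the chromosome 12 cluster.

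miR-200c-3p, the most abundant member in the HCT116 lines, was the 5th most abundant miRNA of HCT116 with 42717 CPM (42566 to 42869) and the 6th of HCT116-R with 42008 CPM (41858 to 42159). It had 90.9 CPM (84.2 to 98.2) in RKO, from 649 counts, and 206 CPM (196 to 217) in RKO-R, from 1426 counts. Its rank in the RKO libraries was 154 and 112. Since these are bulk cultures, fewer cells that make the miRNA and less of it per cell cannot be told apart. Carry-over of HCT116 reads into the RKO libraries was not tested as a source of these low counts, which are set beside other such traces below.

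miR-141-3p, its neighbour on chromosome 12, was at 972 CPM (949 to 995) in HCT116 and 1220 CPM (1194 to 1247) in HCT116-R. Its counts were 17 in RKO and 41 in RKO-R, or 2.38 CPM (1.49 to 3.81) and 5.93 CPM (4.37 to 8.05). The 2 miRNAs had a similar ratio across a wide range of levels, within wide counting error in the RKO lines. In RKO miR-141-3p gave 2.55% (1.60 to 4.05) of the counts of the pair, on 17 counts. For each count of miR-141-3p the parental HCT116 and RKO libraries held 44.0 and 38.2 counts of miR-200c-3p, and their radioresistant counterparts 34.4 and 34.8.

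miR-429 was the main product of the chromosome 1 cluster in every library, at 15883 CPM (15790 to 15977) in HCT116, 12718 CPM (12635 to 12803) in HCT116-R, 7251 CPM (7189 to 7313) in RKO and 8836 CPM (8767 to 8906) in RKO-R. miR-200a-3p was at 2113, 1665, 1839.9 and 1586 CPM in the same order, so that RKO lay between the HCT116 lines. miR-200b-3p was at 956, 664, 616 and 626 CPM, with HCT116 apart from the other 3 libraries. The proportions within the cluster varied between the libraries: miR-429 had 16.6, 19.1, 11.8 and 14.1 counts for each count of miR-200b-3p.

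miR-203a-3p was at 671 CPM (652 to 691) in HCT116, 686 CPM (667 to 706) in HCT116-R, 442 CPM (427 to 458) in RKO and 539 CPM (522 to 557) in RKO-R. RKO was the lowest of the 4, and the HCT116 lines had overlapping intervals. Its locus is shared with miR-203b-5p, which is complementary to it over 21 bases and had 105, 128, 31 and 50 counts. The use of strand in counting is not given in the sources used here, so reads of the 2 cannot be separated with certainty.

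miR-205-5p was counted 795 times in HCT116, at 117 CPM (109 to 125), and 50 times in HCT116-R, at 7.33 CPM (5.56 to 9.67). It was counted 0 times in RKO, which allows up to 0.420 CPM, and 2 times in RKO-R. HCT116 alone thus held more than 100 counts of it.

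**Figure D1:**
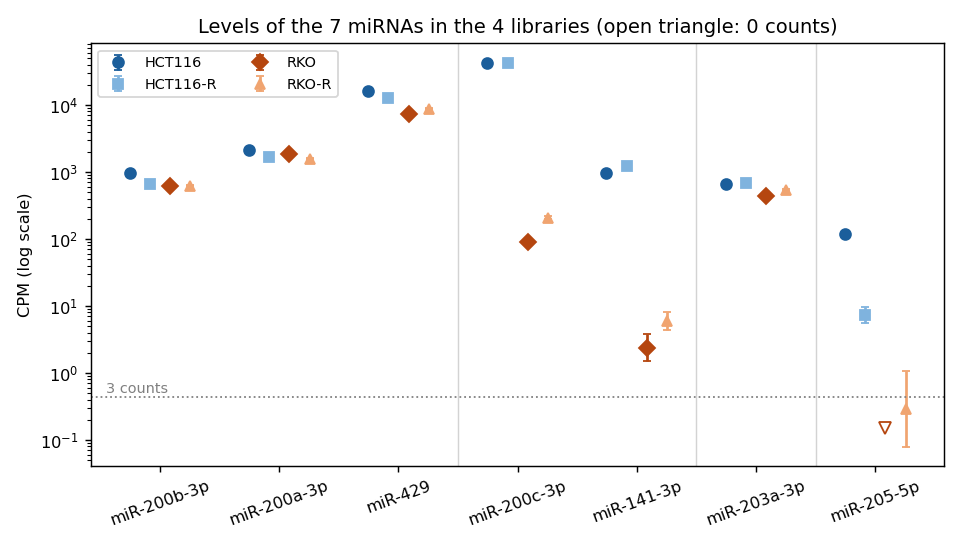
Level of each of the 7 miRNAs in each of the 4 libraries, in CPM of the library total on a log axis. Each point is 1 library, the bars are 95% Wilson intervals (counting error only), and an open triangle marks a count of 0. miR-200c-3p and miR-141-3p separate the HCT116 from the RKO libraries, whereas miR-205-5p is at 117 CPM in HCT116 and at 7.33 CPM or less elsewhere.

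In order of CPM, HCT116 and HCT116-R began with miR-200c-3p, miR-429 and miR-200a-3p, while RKO and RKO-R began with miR-429, miR-200a-3p and miR-200b-3p. The mature forms are 22 or 23 bases long, so that a correction for length would hardly move these levels. In HCT116 the levels of miR-200b-3p (933 to 979 CPM) and miR-141-3p (949 to 995 CPM) had overlapping intervals, so these neighbours in the order did not differ beyond counting error. In HCT116-R miR-200b-3p (645 to 684 CPM) and miR-203a-3p (667 to 706 CPM) overlapped likewise.

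The makeup of each seed group changed from line to line. In the group of miR-200b-3p, miR-200c-3p and miR-429, miR-200c-3p gave 71.7% of the counts in HCT116 and 75.8% in HCT116-R, but 1.14% in RKO and 2.13% in RKO-R. miR-429 gave 26.7% and 23.0% of this group in the HCT116 lines and 91.1% and 91.4% in the RKO lines. The group as a whole summed to 59556, 55391, 7958 and 9668 CPM. In the group of miR-200a-3p and miR-141-3p, miR-141-3p gave 31.5% and 42.3% of the counts in the HCT116 lines, parental first, and 0.129% and 0.373% in the RKO lines. That group summed to 3084, 2886, 1842 and 1592 CPM. Both seeds were therefore present in all 4 libraries, in the RKO lines almost wholly from chromosome 1.

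**Figure D2:**
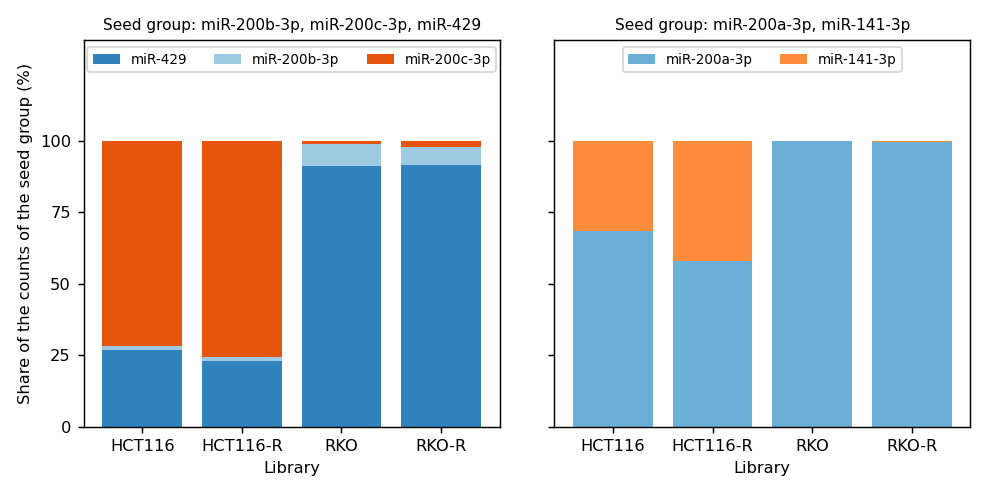
Share of the counts of each seed group, in percent, that each member contributed in each library. miR-200c-3p gives 71.7% and 75.8% of its group in the HCT116 lines but 1.14% and 2.13% in the RKO lines. There miR-429 gives 91.1% and 91.4% of the group, although its CPM is lower than in the HCT116 lines. miR-200a-3p gives 99.9% and 99.6% of the other group in RKO and RKO-R.

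The radioresistant lines were first set against their parental lines. Folds below are on the scale of TMM within the pair, and a miRNA was called when the edgeR exact test at an assumed biological coefficient of variation (BCV) of 0.2 gave an adjusted p under 0.05 over all miRNAs tested in the pair. The BCV is the value that the methods of the study name and was not measured on replicates of these lines. In HCT116-R against HCT116 1 of the 7 members was called, where 4.01% of the 1322 miRNAs tested were called and 10.1% of the 318 with at least 100 counts in a library, which all 7 members reached, so 1 of 7 is near the latter share. This was miR-205-5p, which fell from 795 to 50 counts, 16.1-fold (log2 fold change -4.01, SE 0.46, adjusted p = 6.1e-14 by the edgeR exact test). Among the 15 lower calls with at least 100 counts in a library it was the 5th in size. At a BCV of 0.48, estimated from the 4 libraries, its adjusted p was 0.048 by the edgeR exact test.

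The other 6 members passed no test in the HCT116 pair. The log2 fold change of miR-200c-3p was -0.05 and that of miR-203a-3p 0.01, each with an SE of 0.41. The 3 members of the chromosome 1 cluster had log2 fold changes of -0.55 (miR-200b-3p), -0.37 (miR-200a-3p) and -0.34 (miR-429), and miR-141-3p had 0.31. All 6 had adjusted p-values from 0.84 to 1 in the edgeR exact test. The median over the 7 was -0.34, beside -0.18 over the 318 miRNAs with at least 100 counts in a library of the pair.

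Some miRNAs of the mesenchymal and blood cell lists were also called in the HCT116 pair. The mesenchymal list is not particular to other cells, since its miR-155-5p was at 4749 CPM in RKO and 5728 CPM in RKO-R. Of the 13 mesenchymal miRNAs, 3 were called lower in HCT116-R, 1 was called higher and 9 were not called. Those lower were miR-199a-5p (from 256 to 19 counts), miR-199a-3p (194 to 32) and miR-214-3p (39 to 1), and miR-155-5p rose from 14 to 157. Of the 7 blood cell miRNAs, 1 was called, miR-223-3p, which fell from 54 to 6 counts, and 6 were not called. Of all 1322 miRNAs tested 4.01% were called. The called miRNAs of both lists were picked out after their values were seen. The summed level of the mesenchymal list was 22.6% of counts in HCT116 and 24.2% in HCT116-R, and that of the blood cell list 47.8 and 43.6 CPM. The part of these differences in the fall of miR-205-5p was not tested.

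In RKO-R against RKO 1 of the 7 members was called, where 5.54% of the 1155 miRNAs tested were called and 15.8% of the 272 with at least 100 counts in a library. miR-141-3p (17 and 41 counts) and miR-205-5p (0 and 2) did not reach 100 counts here. Without them, 1 call among the remaining members is near the latter share. miR-200c-3p rose from 649 to 1426 counts, 2.67-fold (log2 fold change 1.42, SE 0.41, adjusted p = 0.024 by the edgeR exact test), and was 16th in size of the 17 higher calls with at least 100 counts. The call was lost when library totals were used without TMM (log2 fold change 1.18, adjusted p = 0.067) and at a BCV of 0.4. Even after this rise RKO-R held 0.491% (0.466 to 0.517) of the miR-200c-3p level of HCT116-R, by the ratio of CPM.

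miR-141-3p had a log2 fold change of 1.55 (SE 0.58) between RKO-R and RKO, on 41 and 17 counts, and was not called (adjusted p = 0.11 by the edgeR exact test). The values for miR-429 and miR-203a-3p were both 0.52, with an SE of 0.41 and an adjusted p of 0.79 in the edgeR exact test. miR-200b-3p was at 0.26, and miR-200a-3p at 0.02, which turned to -0.21 with library totals alone and to -0.01 with the size factors of DESeq2. TMM moved all log2 fold changes of this pair by 0.24 relative to library totals. miR-205-5p, with 0 and 2 counts, was too low in both libraries for a fold. The median over the 6 members with a value was 0.52, beside 0.02 over 272 miRNAs with at least 100 counts.

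Some miRNAs of the mesenchymal list were called in this pair too. Of its 12 miRNAs tested, 4 were called higher in RKO-R, 0 were called lower and 8 were not called. Of all 1155 miRNAs tested 5.54% were called. The 4 were miR-199a-5p (from 0 to 86 counts), miR-199a-3p (5 to 22), miR-214-3p (0 to 14) and miR-143-3p (51 to 522). The summed level of the list was 17.8% of counts in RKO and 13.9% in RKO-R. The number of its members at 0 was 4 in RKO and 1 in RKO-R. Of the 6 intestinal epithelial miRNAs tested, 1 was called, miR-183-5p, which rose from 2567 to 10432 CPM. The other 5 were not called, among them miR-182-5p (9015 CPM in RKO and 8992 in RKO-R) and miR-96-5p (2778 and 2017 CPM). The part of these differences in the rise of miR-200c-3p was not tested.

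**Figure D3:**
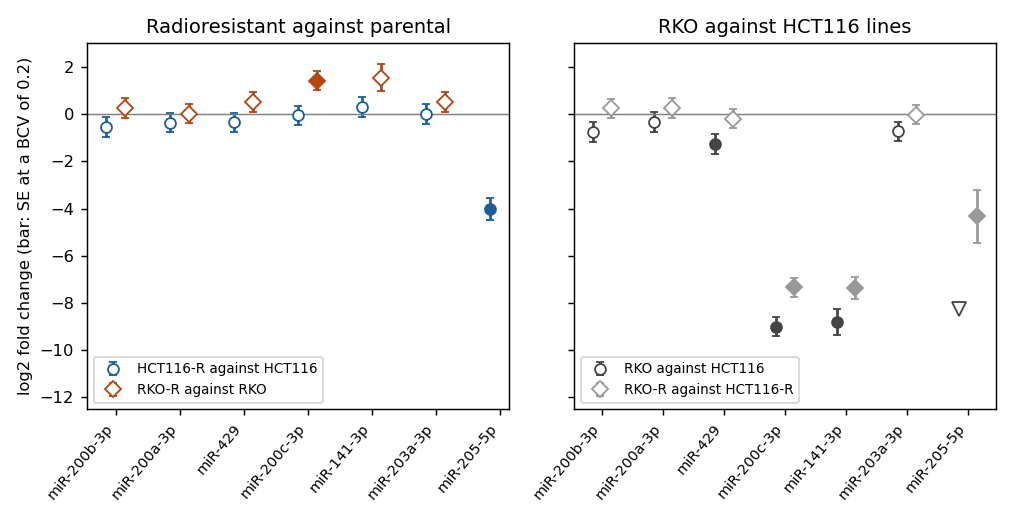
Log2 fold change of each member on the scale of TMM within the pair, for the radioresistant against the parental library (left) and for RKO against HCT116 lines (right); bars are the SE at a BCV of 0.2. Filled symbols were called by the edgeR exact test, open symbols were not, and the open downward triangle for miR-205-5p is a bound against 3 counts, also called. On the left miR-205-5p in the HCT116 pair and miR-200c-3p in the RKO pair are filled, and on the right miR-200c-3p and miR-141-3p lie below -7 in both comparisons.

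The difference between the lines in the radioresistant change was tested directly, by the interaction of line and radioresistance in an edgeR likelihood ratio test at the same BCV. Of all 1474 miRNAs 4.75% were called, and of the 7 members 1, miR-205-5p (adjusted p = 0.020, edgeR). The HCT116 pair held 795 and 50 counts of it and the RKO pair 0 and 2, where a fall could not have been seen, so this p restates the fall in HCT116-R and shows no difference between the lines in the change. For miR-200c-3p the RKO change exceeded the HCT116 change by 1.43 on the log2 scale, which was not called (adjusted p = 0.16, edgeR). For the other 5 members this difference ran from 0.35 for miR-200a-3p to 1.21 for miR-141-3p, with adjusted p-values from 0.45 to 1.00 in the edgeR test.

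The 2 parental lines differed most in the chromosome 12 cluster. In RKO against HCT116 4 of the 7 members were called, all of them lower in RKO, where 17.1% of the 1289 miRNAs tested were called lower and 25.5% were called in either direction. Among the 328 with at least 100 counts in a library, as all 7 members had in HCT116, 51.8% were called in either direction and 113 were called lower. The 4 of 7 is near the share called in either direction. It is above the 113 of 328 called lower, but rests on 7 members. miR-200c-3p was 513-fold lower in RKO (log2 fold change -9.00, SE 0.41, adjusted p = 2.2e-51 by the edgeR exact test), and this was the largest of the 113 lower calls with at least 100 counts. miR-141-3p was 445-fold lower (log2 fold change -8.80, SE 0.54, adjusted p = 1.1e-44) and 4th in size by the same test. miR-205-5p was at least 303-fold lower, taking 3 counts as the limit in RKO (adjusted p = 4.7e-33 by the edgeR exact test).

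The chromosome 1 cluster and miR-203a-3p differed much less between the parental lines. miR-429 was 2.39-fold lower in RKO (log2 fold change -1.26, SE 0.41, adjusted p = 0.012 by the edgeR exact test), a call that was lost at a BCV of 0.4 (adjusted p = 0.45). miR-200b-3p, at -0.76, miR-203a-3p, at -0.73, and miR-200a-3p, at -0.33, were not called (adjusted p = 0.19, 0.22 and 0.75 by the edgeR exact test). The median log2 fold change over the 7 was -1.26, beside -0.26 over the 328 miRNAs with at least 100 counts.

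Between the radioresistant lines, RKO-R against HCT116-R, 3 of the 7 members were called, all lower in RKO-R, where 16.0% of the 1333 miRNAs tested were called lower and 23.2% in either direction. Among the 311 with at least 100 counts in a library, 52.4% were called in either direction and 96 were called lower. The number of members called is no excess over the share called in either direction. Without miR-205-5p, which did not reach 100 counts here, it is close to the share called lower. miR-200c-3p was 162-fold lower (log2 fold change -7.34, SE 0.41, adjusted p = 4.0e-39 by the edgeR exact test) and miR-141-3p 163-fold lower (-7.35, SE 0.47, adjusted p = 8.6e-37). miR-205-5p, on 2 against 50 counts, was 20.1-fold lower (-4.33, SE 1.12, adjusted p = 1.5e-05 by the edgeR exact test). By the ratio of CPM it stood at 3.95% of the HCT116-R level, with a counting interval from 0.465% to 15.0%.

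The remaining 4 members were not called between the radioresistant lines. miR-429 was at -0.19 and miR-203a-3p at -0.01. miR-200a-3p and miR-200b-3p were at 0.26 and 0.25, and both turned negative, to -0.07 and -0.09, with library totals in place of TMM. TMM shifted the log2 fold changes of this comparison by 0.33. The median over the 7 was -0.19, beside 0.06 over 311 miRNAs with at least 100 counts.

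The comparisons share libraries, so their values are not independent of each other. When cell line and radioresistance were fitted as factors over all 4 libraries by the edgeR quasi-likelihood test, which estimates the spread with 1 residual degree of freedom, 174 of 590 miRNAs (29.5%) differed between the lines. Of the 7 members, miR-200c-3p (log2 fold change RKO minus HCT116 -8.29, adjusted p = 0.00036, edgeR), miR-141-3p (-8.16, adjusted p = 0.00036) and miR-205-5p (adjusted p = 0.0056) were among them. miR-429 was not (-0.84, adjusted p = 0.21, edgeR), nor were miR-200a-3p, miR-200b-3p and miR-203a-3p. For this line term a parental library and that of the radioresistant line derived from it stand as replicates of a line. They are not independent samples of it. For radioresistance in the same fit, where cell line is the block and the 2 pairs stand as replicates, 4 of the 590 miRNAs (0.678%) were called and 14 had an unadjusted p under 0.05, but 0 of the 7 members had either (adjusted p = 0.998 for each, edgeR). The shared log2 fold change in this fit was -2.62 for miR-205-5p and 0.70 for miR-200c-3p.

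The low counts of the chromosome 12 cluster in RKO were set beside other miRNAs abundant in HCT116. By a criterion set once the values were known, 9 miRNAs reached 1000 counts in HCT116 while RKO held less than 1% of their HCT116 level, and 4 of these were arms of the chromosome 12 hairpins. The RKO level was 0.213% (0.197 to 0.230) of the HCT116 level for miR-200c-3p, 0.245% (0.143 to 0.393) for miR-141-3p, 0.257% for miR-200c-5p and 0.348% for miR-141-5p. The other 5, miR-204-5p, miR-218-5p, miR-375-3p, miR-9-3p and miR-9-5p, stood at 0.233% to 0.829%, with a median of 0.261%. The value of miR-200c-3p lay just below these 5 and that of miR-141-3p among them. Save for miR-204-5p, the counting intervals of these 5 included 0.213%, such as 0.0755% to 0.544% for miR-218-5p on 5 RKO counts. Their order relative to miR-200c-3p is thus within counting error.

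Most of these traces were higher in RKO-R than in RKO. By CPM the RKO-R level was 227% (207 to 249) of that of RKO for miR-200c-3p and 249% (138 to 468) for miR-141-3p. The other 5 miRNAs were all higher in RKO-R, at 176% to 558% of the RKO level with a median of 232%, but all 9 were selected for a low RKO value, which by itself favours a higher value in RKO-R. Relative to HCT116-R, the 5 outside the chromosome 12 cluster stood in RKO-R at 0.710% to 18.6%. The highest was miR-204-5p, on 38 counts against 201 in HCT116-R. The values of miR-200c-3p (0.491%, 0.466 to 0.517) and miR-141-3p (0.486%, 0.349 to 0.660) lay below all 5. The interval of the lowest of the 5, miR-9-3p (0.467 to 1.03), overlapped both. For miR-141-3p those of miR-9-5p and miR-375-3p did so too. These percents also depend on the HCT116-R level. By CPM it was 9.69% of the HCT116 level for miR-204-5p, 56.7% for miR-375-3p and 81.9% to 96.8% for the rest of the 5. Of the other arms, miR-200c-5p went from 4 to 3 counts and miR-141-5p from 5 to 0 between RKO and RKO-R. In the reverse direction miR-155-5p, abundant in the RKO lines, stood in HCT116 at 0.0432% of its RKO level and in HCT116-R at 0.402% of its RKO-R level. Whether reads carried over between libraries make up such traces, and with them the miR-200c-3p counts behind the call between RKO-R and RKO, was not tested.

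**Figure D4:**
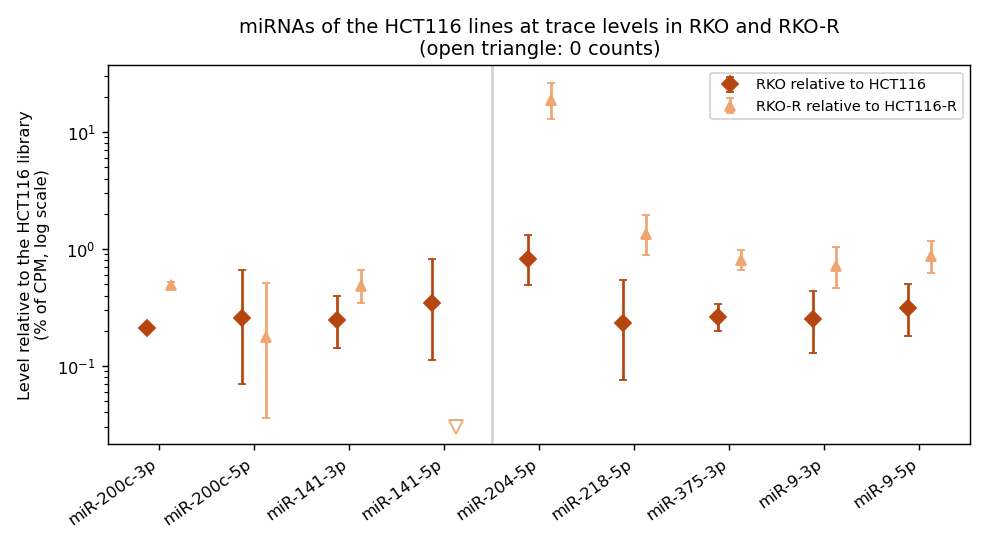
The 9 miRNAs abundant in HCT116 (1000 counts or more) of which RKO held less than 1%, each shown as its level in an RKO line as a percent of the matching HCT116 line, on a log axis with 95% exact intervals for counting error. miR-200c-3p is at 0.213% in RKO and 0.491% in RKO-R, and the 5 miRNAs outside the chromosome 12 cluster have medians of 0.261% and 0.865%. In RKO-R these 5 range from 0.710% to 18.6%, the highest being miR-204-5p. All their values lie above that of miR-200c-3p, but the interval of miR-9-3p overlaps its interval. An open triangle marks a count of 0 (miR-141-5p in RKO-R).

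A miRNA hairpin gives a 5p and a 3p product, and the less used arm gives a further count of the same precursor. The 5p arm of miR-200b took 33.9% (33.0 to 34.8) of the hairpin counts in HCT116, 25.3% (24.2 to 26.4) in HCT116-R, 25.5% (24.4 to 26.6) in RKO and 20.1% (19.1 to 21.2) in RKO-R. That of miR-200a took 21.7%, 23.0%, 12.7% and 10.5% in the same order. Both shares were lower in the RKO lines than in their HCT116 counterparts beyond counting error, save that HCT116-R and RKO overlapped for miR-200b. In miR-200c the 5p arm took only 0.509%, 0.585%, 0.613% and 0.210%. In miR-141 it took 17.1% and 15.4% in the HCT116 lines, and 22.7% (10.1 to 43.4) and 0% (upper Wilson limit 8.57%) in RKO and RKO-R. The RKO interval spans the HCT116 values and that of RKO-R lies below them, on 17 counts of the 3p and 5 of the 5p arm in RKO and 41 and 0 in RKO-R.

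In RKO against HCT116 all 4 of these 5p arms were called lower, beside the 17.1% of all miRNAs called lower and the 51.8% of those with at least 100 counts called in either direction. miR-200a-5p had a log2 fold change of -1.26 (adjusted p = 0.013 by the edgeR exact test) and miR-200b-5p one of -1.34 (adjusted p = 0.0071), where their 3p partners were not called. miR-200c-5p went from 1490 counts in HCT116 to 4 in RKO, and miR-141-5p from 1372 to 5. In RKO-R against HCT116-R, where these shares were 16.0% and 52.4%, 3 of the 4 were called lower, namely miR-200a-5p (log2 fold change -1.08, adjusted p = 0.043 by the edgeR exact test), miR-200c-5p, from 1685 to 3 counts, and miR-141-5p, from 1509 to 0. miR-200b-5p was not called there (log2 fold change -0.18, adjusted p = 0.96 by the edgeR exact test). None of the 4 passed the edgeR exact test in either radioresistant pair, the nearest being miR-200b-5p in the HCT116 pair (log2 fold change -1.15, adjusted p = 0.12).

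The other arms of miR-203a and miR-205 were nearly absent. miR-203a-5p had 1 count, in RKO-R, and miR-205-3p had 0 counts in all 4 libraries, which for HCT116 allows up to 0.440 CPM. In RKO against HCT116 both arms of the antisense miR-203b were called lower by the edgeR exact test, whereas miR-203a-3p was not. The HCT116 and RKO counts were 105 and 31 for miR-203b-5p and 16 and 1 for miR-203b-3p. Of all miRNAs tested there, 17.1% were called lower. Adding the counts of miR-203b-5p to those of miR-203a-3p changed no call of miR-203a-3p.

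**Figure D5:**
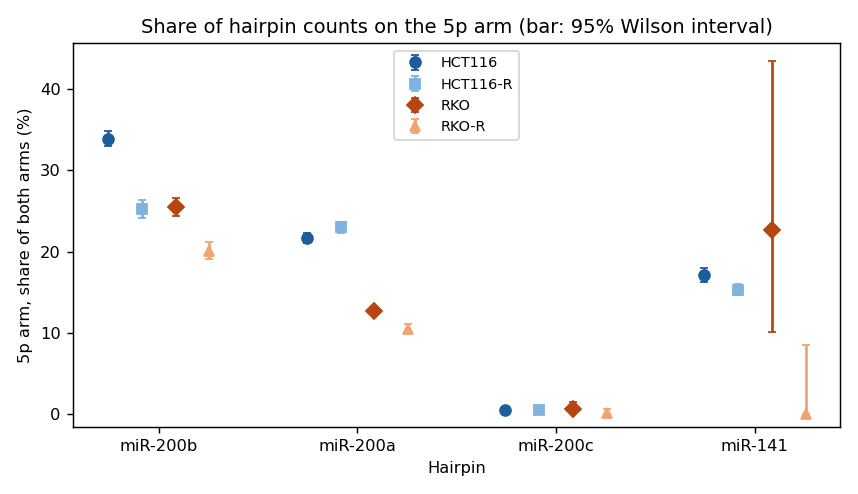
Share of the counts of a hairpin that fell on its 5p arm, in percent, for the 4 hairpins with counts on both arms in at least 3 libraries; bars are 95% Wilson intervals. For miR-200a the share is 21.7% and 23.0% in the HCT116 lines and 12.7% and 10.5% in the RKO lines, and the wide bars for miR-141 in RKO and RKO-R rest on few counts (17 and 41 on the 3p arm).

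The miRNAs whose profile over the 4 libraries lay closest to the members were taken by the mean absolute difference of centred log2(CPM + 1) among 339 miRNAs. Closest to the sum of the 5 miR-200 members were miR-100-3p (mean difference 0.02), miR-100-5p (0.18) and miR-641 (0.22). miR-203a-3p was closest to miR-99b-5p (0.08), miR-182-3p (0.08) and miR-548k (0.11). For miR-205-5p the nearest was miR-204-5p (0.25), with 2076, 201, 18 and 38 counts in HCT116, HCT116-R, RKO and RKO-R. The next, miR-483-5p (0.77) and miR-497-5p (0.83), were far less alike. Since the miRNAs were picked for these profiles over 4 libraries, the distances are a description only.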

How the data were processed

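Small RNA of 18 to 30 bases was cut from gels, joined to adapters with unique molecular identifiers and sequenced on a BGISEQ platform, per the labels and the methods of the study. The authors deposited raw counts per mature miRNA for each of the 4 libraries, and miRNAs missing from a library were set to 0 counts. Bowtie2 and hg38 are named in the submitters' processing notes, without a version or a role. Collapse of molecular identifiers, the annotation release and the use of strand are not given in the sources used here.

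Counts were scaled to CPM by the library total. Pairs of libraries were tested with the edgeR exact test (edgeR 4.0.16, R 4.3.3) with TMM and a BCV of 0.2, with the Benjamini-Hochberg adjustment across every miRNA counted in the pair, and the interaction with edgeR's likelihood ratio test. SEs were derived from the counts and the BCV. Folds against 0 counts were set against 3 counts. Intervals of ratios are exact binomial, at 95%, and like all intervals cover counting error only. The 2 libraries of a comparison may differ for technical reasons, since none was repeated. The tests were tried on simulated data.

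The members and lists were chosen with earlier results of these data known. The text names the 7 members, their other arms, both arms of miR-203b, the 3 miRNAs closest in profile to each of 3 targets (at least 100 counts in a library) and at most 4 of each marker list by CPM. Those named outside this rule were chosen after their values were seen. Alternatives were a BCV of 0.1, 0.4 or estimated, library totals, DESeq2 1.42.0 size factors, TMM over 4 libraries, filters of 1 CPM or 10 counts, a likelihood ratio test, a quasi-likelihood fit with cell line and radioresistance as factors (its radioresistance term added after the data had been seen) and the sum of antisense miRNAs. Sequences came from RefSeq (GRCh38.p14), and hairpin positions from GENCODE on GRCh38. Levels and figures were made in Python 3.11.15 (scipy 1.17.1, pandas 2.3.3, numpy 2.4.6, matplotlib 3.10.9).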

Additional observations from a re-analysis of the deposited data

Results flagged for a closer look

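miR-205-5p was called in the direct test of whether the lines differed in their change with radioresistance (adjusted p = 0.0199, edgeR likelihood ratio test of the interaction at a BCV of 0.2). Its parental and radioresistant counts were 795 and 50 for HCT116, and 0 and 2 for RKO, so the RKO pair lies at or under the limit of 3 counts, gives no fold and had no level from which a fall could show. The test therefore does not show that the change differed between the lines. Over the 7 settings tried the adjusted p ran from 0.0077 to 0.099 and passed 0.05 in 6 of them, the exception being a BCV of 0.4. Each of the 4 values is 1 library.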

How the results depend on the processing

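miR-205-5p in HCT116-R against HCT116, and miR-200c-3p, miR-141-3p and miR-205-5p in both comparisons of RKO with HCT116 lines, were called under every setting tried. For miR-205-5p the margin was narrow at the estimated BCV of 0.48. Its adjusted p was then 0.048 in the HCT116 pair and 0.034 in RKO-R against HCT116-R (edgeR exact test). In RKO-R against RKO, where miR-200c-3p was the 1 member called, 2 members were called at a BCV of 0.1 (with miR-141-3p), and 0 were called at a BCV of 0.4, at an estimated BCV of 0.48, and with library totals in place of TMM. For the difference between the lines, 3 members were called at a BCV of 0.1 (miR-200c-3p, miR-429 and miR-205-5p) and 0 at 0.4, against 1. The direction of miR-200a-3p in RKO-R against RKO turned to -0.21 with library totals and to -0.0062 with DESeq2 size factors. In RKO-R against HCT116-R, miR-200a-3p and miR-200b-3p turned to -0.0706 and -0.0864 with library totals. The quasi-likelihood fit gives 1 line effect over all 4 libraries, not a value of that comparison, which was -0.15 and -0.37 for these 2 miRNAs. miR-429 in RKO against HCT116 was not called at a BCV of 0.4, at the estimated BCV or in the quasi-likelihood fit. The assumed BCV set how many of all miRNAs were called. At 0.2, 0.1, 0.4 and the estimated value these numbered 53, 154, 24 and 14 in the HCT116 pair and 64, 148, 9 and 5 in the RKO pair. In RKO against HCT116, 329 were called at 0.2, 152 at 0.4, and 112 at the estimated value, and in RKO-R against HCT116-R 309, 140 and 96. The quasi-likelihood fit, which tests 590 miRNAs in all 4 libraries and so changes several choices at once, called 174 between the lines. The interaction gave 70 at 0.2, 178 at 0.1 and 14 at 0.4. The paired fit of radioresistance with cell line as the block, chosen after seeing the data, called 0 of the 7 members, miR-205-5p and miR-200c-3p included, where it asks for 1 change shared by both lines. Depth limits miR-205-5p and miR-141-5p in the RKO lines and leaves miR-141-3p there on 17 and 41 counts.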
